A study of Homo sapiens with 3 samples.

Results

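The mRNA levels of 10 genes of the DNA methylation and Polycomb machinery were examined in a human hepatocellular carcinoma (HCC) line, HCCLM3, and in 2 subclones of it. The members were the genes of the deposited tables whose symbol was DNMT1, DNMT3A, DNMT3B, UHRF1, TET1, TET2, TET3, EZH2, EED or SUZ12, and all 10 were listed in each of the 3 libraries, among 16149 genes listed in at least 1. The parent carries the label of low metastatic ability, subclone 1 that of a greater ability directed to the lung, and subclone 2 that of an ability directed both to lung and celiac lymph node. The study's methods name HCCLM3-R, a derivative that expresses red fluorescent protein, as the parental line and call its metastatic potential high. They describe clones grown from single cells of lung or lymph node metastases in nude mice, and the sources used here do not say which of these clones were sequenced. All 3 lines were cultured in the same medium, and each gave 1 library. With 1 library per line no difference could be tested between cell lines, and each difference below is between these libraries.

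DNA methylation is the addition of a methyl group to cytosine, mostly where a guanine follows (CG), and at promoters it goes with silent genes. DNMT3A and DNMT3B set new methyl groups, DNMT1 copies the pattern to the daughter strand after replication, and UHRF1 recognises the half-copied CG and brings DNMT1 to it. The TET dioxygenases oxidise the methyl group, which opens the way to its removal. Polycomb repressive complex 2 (PRC2) methylates lysine 27 of histone H3, with EZH2 as its catalytic subunit and EED and SUZ12 as subunits that it needs to act. Altered DNA methylation and abundant EZH2 are common in liver cancer, and in many cells DNMT1, UHRF1 and EZH2 are transcribed most in dividing cells.

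The values were RPKM, the reads of a gene per 1000 bases of its length, scaled to the reads of the library, so that levels of different genes can be compared. Whole reads were recovered from the RPKM for 99.7% of the genes of each library, with totals of 4488825, 4609696 and 4725150 reads for the parent, subclone 1 and subclone 2. Intervals of 95% are exact Poisson intervals for RPKM and exact (Clopper-Pearson) intervals for folds, and cover counting error only. Keratins KRT8 and KRT18, which mark hepatic epithelium, were at 953 RPKM or above in every library. The other epithelial markers were not uniform. CDH1 was 2.08 RPKM in the parent, 8.97 RPKM in subclone 1 and 12.3 RPKM in subclone 2. Its folds over the parent were 4.31 (3.10 to 6.09) and 5.91 (4.30 to 8.29). EPCAM had 2, 1 and 3 reads in the same order. Summed, the 4 epithelial markers were 2569, 2725 and 2803 RPKM. Albumin (ALB) was 2.46 RPKM in the parent, 49.5 RPKM in subclone 1 and 68.8 RPKM in subclone 2, so that the defining product of hepatocytes was low in the parent. Of the markers of other cells, the pan-leukocyte gene PTPRC had 2 reads in the parent and 0 in the subclones, and the fibroblast collagen COL1A2 had at most 1 read. Summed RPKM of the lists for the parent, subclone 1 and subclone 2 were 36.4, 125 and 121 for 10 hepatocyte markers, 15.7, 31.2 and 24.3 for 7 fibroblast markers, 4.74, 11.8 and 7.56 for 4 endothelial markers, and 75.5, 112 and 99.7 for 4 leukocyte markers. CD68, a macrophage gene, made up nearly the whole leukocyte sum, at 75.3, 112 and 99.6 RPKM. Among the fibroblast genes LUM was 10.1, 23.99 and 21.003 RPKM and DCN 0.773, 4.42 and 2.75 RPKM, whereas COL3A1 was 4.42, 2.21 and 0.463 RPKM. The endothelial gene PECAM1 was 3.33, 9.81 and 4.46 RPKM, and VWF had at most 2 reads. The sums were lowest in the parent, and their part in the results was not tested.

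The promoters of 4 members are shown, those with a mean of at least 1 RPKM whose fold between libraries had a counting interval that excluded 1. Each is the 250 bases before the first start of the gene in the RefSeq promoter table of GRCh38.p14, written 5′ to 3′ on the gene's strand with each CG in capitals. The windows lie at chr19:10194954-10195203 (DNMT1, minus strand), chr19:4909251-4909500 (UHRF1, plus strand, the first of 3 starts), chr20:32779602-32779851 (DNMT3B, plus strand) and chr17:31936757-31937006 (SUZ12, plus strand). The RPKM were made on hg19, and no coordinate was taken from the RPKM files.
DNMT1: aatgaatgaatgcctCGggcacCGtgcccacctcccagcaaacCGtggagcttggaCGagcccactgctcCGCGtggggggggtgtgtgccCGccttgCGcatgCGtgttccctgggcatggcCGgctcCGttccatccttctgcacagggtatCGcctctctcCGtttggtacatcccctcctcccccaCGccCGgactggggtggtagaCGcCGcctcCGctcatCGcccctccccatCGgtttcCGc
UHRF1: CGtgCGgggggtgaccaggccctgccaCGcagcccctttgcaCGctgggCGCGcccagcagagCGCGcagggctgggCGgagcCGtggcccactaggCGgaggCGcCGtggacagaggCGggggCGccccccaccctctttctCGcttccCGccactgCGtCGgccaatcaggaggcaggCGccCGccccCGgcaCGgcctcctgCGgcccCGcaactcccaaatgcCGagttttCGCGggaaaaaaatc
DNMT3B: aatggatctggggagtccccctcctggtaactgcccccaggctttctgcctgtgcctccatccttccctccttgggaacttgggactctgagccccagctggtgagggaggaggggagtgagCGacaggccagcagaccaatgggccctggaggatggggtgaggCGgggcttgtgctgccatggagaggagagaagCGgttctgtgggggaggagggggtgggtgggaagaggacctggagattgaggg
SUZ12: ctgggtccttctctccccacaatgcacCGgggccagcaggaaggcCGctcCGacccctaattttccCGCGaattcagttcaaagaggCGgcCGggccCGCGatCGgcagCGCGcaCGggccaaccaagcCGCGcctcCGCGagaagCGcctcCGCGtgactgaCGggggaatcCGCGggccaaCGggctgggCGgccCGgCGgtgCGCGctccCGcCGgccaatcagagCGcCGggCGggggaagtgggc

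Capitals are sparse in DNMT3B and more frequent in the other windows shown. The DNMT3B window holds 3 CG, against 21 in DNMT1, 28 in UHRF1 and 34 in SUZ12. It precedes the 1 start given for DNMT3B. Which start the transcripts of these lines use was not tested, so the window may not be the promoter in use. Over the first windows of 27305 genes the median was 11, with quartiles of 3 and 23. The first EZH2 window, on chromosome 7, holds 38 CG. Those of TET3, DNMT3A, EED, TET2 and TET1 hold 37, 21, 11, 10 and 9 in that order. Each window was searched on both strands for 4 words of the E2F factors, which drive genes of DNA replication: TTTCCCGC, TTTGGCGC, TTTCGCGC and TTTGCCGC. UHRF1 holds TTTCCCGC on the minus strand, from 14 to 7 bases before the start, and SUZ12 holds it on the plus strand, from 189 to 182 bases before the start. These were 2 of the 10 members in their first window, and 2.79% of all first windows hold a word. A match is a description of these letters only.

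In level, the members formed an abundant and a scarce set with the same genes in all 3 lines. DNMT1, SUZ12, UHRF1, EZH2 and EED ranged from 12.4 to 36.0 RPKM. DNMT3B stood between, from 2.25 to 3.89 RPKM, and DNMT3A, TET1, TET2 and TET3 lay between 0.242 and 1.12 RPKM. The intervals of EED and DNMT3B did not overlap in any library, nor did those of DNMT3B and the member below it. Within the scarce set the order of neighbours is not resolved, since the intervals of each neighbouring pair overlapped. Some members further apart were separated. In the parent TET3 (0.840 to 1.45 RPKM) lay above DNMT3A (0.175 to 0.799) and TET1 (0.248 to 0.660). In subclone 1 DNMT3A (0.642 to 1.58) lay above TET1 (0.190 to 0.559). In subclone 2 TET3 (0.748 to 1.31) and TET2 (0.581 to 1.13) lay above TET1 (0.121 to 0.434). At the top, DNMT1 and SUZ12 overlapped in the parent and in subclone 1, and SUZ12 stood above DNMT1 in subclone 2.

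**Figure D1:**
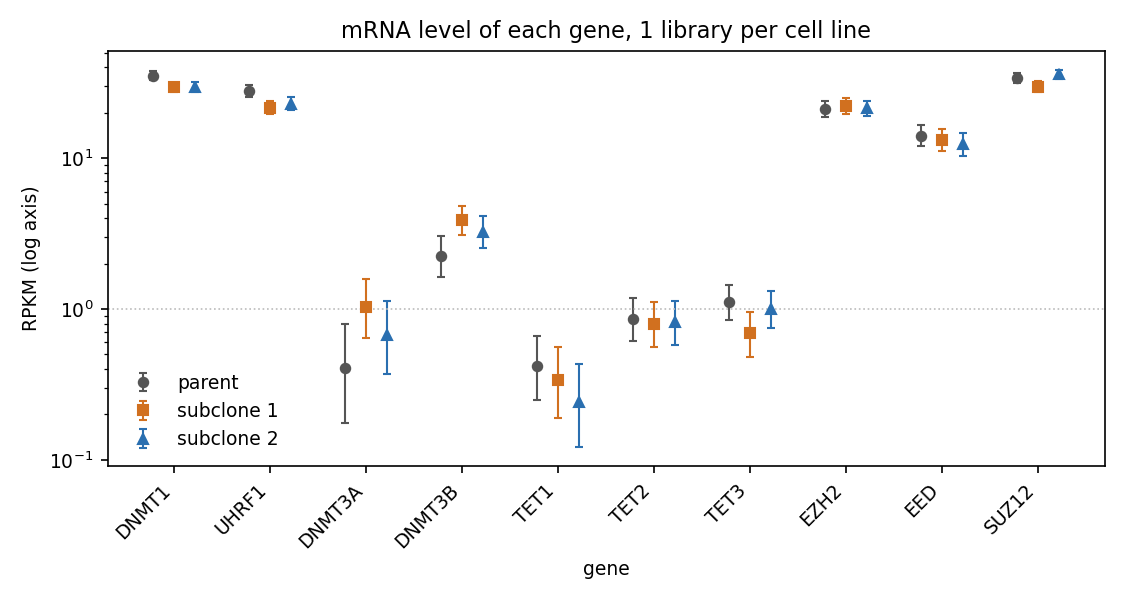
Level of each member in RPKM (log axis) in the parent (circles), subclone 1 (squares) and subclone 2 (triangles), with 95% counting intervals from 1 library each. The dotted line marks 1 RPKM: DNMT1, UHRF1, EZH2, EED and SUZ12 lie between 12.4 and 36.0 RPKM, DNMT3B between 2.25 and 3.89 RPKM, and DNMT3A and the TET genes at 1.12 RPKM or below.

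Differences were counted among the 11370 genes with a mean of at least 1 RPKM over the 3 libraries, on the scale of log2 of (RPKM + 0.1). On this scale 6 members (DNMT1, UHRF1, DNMT3B, EZH2, EED and SUZ12) passed the minimum, and DNMT3A, TET1, TET2 and TET3 did not. None of the 6 was at least 2-fold higher or lower in any of the 3 comparisons. Over all 11370 genes, 6.72% differed at least 2-fold between subclone 1 and the parent (4.9% higher, 1.82% lower), and 7.49% between subclone 2 and the parent (5.33% higher, 2.16% lower). Between the subclones it was 2.81% (1.42% higher and 1.39% lower in subclone 2). The comparisons with the parent share its 1 library. The median log2 ratio of the 6 was -0.15 in subclone 1 and -0.089 in subclone 2, beside medians of 0.0043 and 0.037 over all genes.

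Smaller differences were read by whether the counting interval of the fold excluded 1, a rule added after the values were seen. By it, DNMT3B alone of the 6 exceeded the parent in subclone 1, and 3 (DNMT1, UHRF1 and SUZ12) were below it. Of the 4 members under the minimum, DNMT3A was above and TET3 below the parent in subclone 1 by the same rule. Over the 11367 genes with whole reads and a mean of at least 1 RPKM, the rule called 39.8%, with 20.4% higher and 19.4% lower. Shares of all genes by this rule are over these genes throughout, and so do not cover DNMT3A or TET3. In subclone 2 none of the 6 was higher and 2 (DNMT1 and UHRF1) were lower, beside 23.1% and 18.3% of all genes (41.4% either way). Between the subclones SUZ12 alone among the 6 was higher in subclone 2, beside 11.9% of all genes higher and 8.74% lower (20.6% either way). Intervals that exclude 1 are thus frequent in these libraries, and with 1 library per line they do not separate a cell line from its library.

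The maintenance genes were lower in both subclones. DNMT1 (Entrez 1786, chromosome 19) was 35.2 RPKM for the parent (interval 32.8 to 37.6 from 856 reads), against 29.4 RPKM for subclone 1 (27.3 to 31.6 from 736 reads) and 29.6 RPKM for subclone 2 (27.5 to 31.8 from 758 reads). The parent was the highest, and its interval did not overlap those of the subclones. The fold over the parent was 0.837 in subclone 1 (0.758 to 0.925) and 0.841 in subclone 2 (0.762 to 0.929). Between the subclones the fold was 1.00 (0.907 to 1.11).
UHRF1 (Entrez 29128, chromosome 19) had 27.9 RPKM for the parent (interval 25.5 to 30.4 from 512 reads), against 21.7 RPKM for subclone 1 (19.6 to 23.9 from 408 reads) and 23.0 RPKM for subclone 2 (20.9 to 25.2 from 444 reads). Here again the parental interval lay above those of both subclones. Its fold over the parent was 0.776 in subclone 1 (0.680 to 0.886) and 0.824 in subclone 2 (0.724 to 0.937). The log2 ratios of DNMT1 stood at percentiles 23.7 and 22.8 of all genes, and those of UHRF1 at 16.2 and 20.7. DNMT1 and UHRF1 kept a ratio to each other of 1.26, 1.36 and 1.29 across the parent, subclone 1 and subclone 2.

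Genes of the dividing cell are given beside them. In a list of 20 proliferation genes, all with a mean of at least 1 RPKM, 14 had an interval below 1 and 1 above it in subclone 1, and 10 and 2 in subclone 2, where 6 of the 20 had a ratio above 0. Over all genes 19.4% lay below and 20.4% above in subclone 1, and 18.3% and 23.1% in subclone 2. None of the 20 differed 2-fold, and the median log2 ratios were -0.24 and -0.19, beside -0.26 and -0.25 for DNMT1 and -0.36 and -0.28 for UHRF1. MCM7, a subunit of the replicative helicase, was 185 RPKM in the parent, 125 RPKM in subclone 1 and 140 RPKM in subclone 2. TOP2A, the topoisomerase of dividing cells, went the other way, with 124, 132 and 138 RPKM in the same order. Per 1000 RPKM of the summed list, DNMT1 was 27.7, 27.7 and 25.9 in that order. UHRF1 was 21.97, 20.4 and 20.2 on this measure. In the study's own growth assay, some clones grew faster than the other lines tested, parental cells included. The sources used here do not say whether those clones were sequenced. The part of proliferation in the difference of DNMT1 and UHRF1 was not tested.

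The de novo enzymes had their lowest values in the parent, and for both the interval of the fold in subclone 1 excluded 1. DNMT3B (Entrez 1789, chromosome 20) had 2.25 RPKM for the parent (interval 1.64 to 3.02 from 44 reads), against 3.89 RPKM for subclone 1 (3.07 to 4.85 from 78 reads) and 3.26 RPKM for subclone 2 (2.52 to 4.14 from 67 reads). Subclone 1 lay above the parent without overlap of the intervals, while subclone 2 overlapped both. Its fold over the parent was 1.73 in subclone 1 (1.18 to 2.56, percentile 92.1 of all genes). In subclone 2 it was 1.45 (0.974 to 2.17), which includes no difference, and the fold between the subclones was 0.838 (0.595 to 1.18).
DNMT3A (Entrez 1788, chromosome 2) rested on few reads, with 0.406 RPKM for the parent (interval 0.175 to 0.799 from 8 reads), against 1.04 RPKM for subclone 1 (0.642 to 1.58 from 21 reads) and 0.674 RPKM for subclone 2 (0.369 to 1.13 from 14 reads). The 3 intervals of DNMT3A overlapped one another. The fold over the parent was 2.56 in subclone 1, with an interval from 1.09 to 6.67, and 1.66 in subclone 2 (0.651 to 4.57). On the log2 scale the ratio in subclone 1 was 1.17, and it was 0.54 with a pseudocount of 1.
Set against the maintenance enzyme, DNMT1 was 13.2 times the sum of DNMT3A and DNMT3B in the parent, 5.98 times in subclone 1 and 7.52 times in subclone 2. The summed de novo enzymes were 2.66, 4.92 and 3.93 RPKM in the same order, from 52, 99 and 81 reads. A ratio within a library does not depend on how libraries are scaled.

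**Figure D2:**
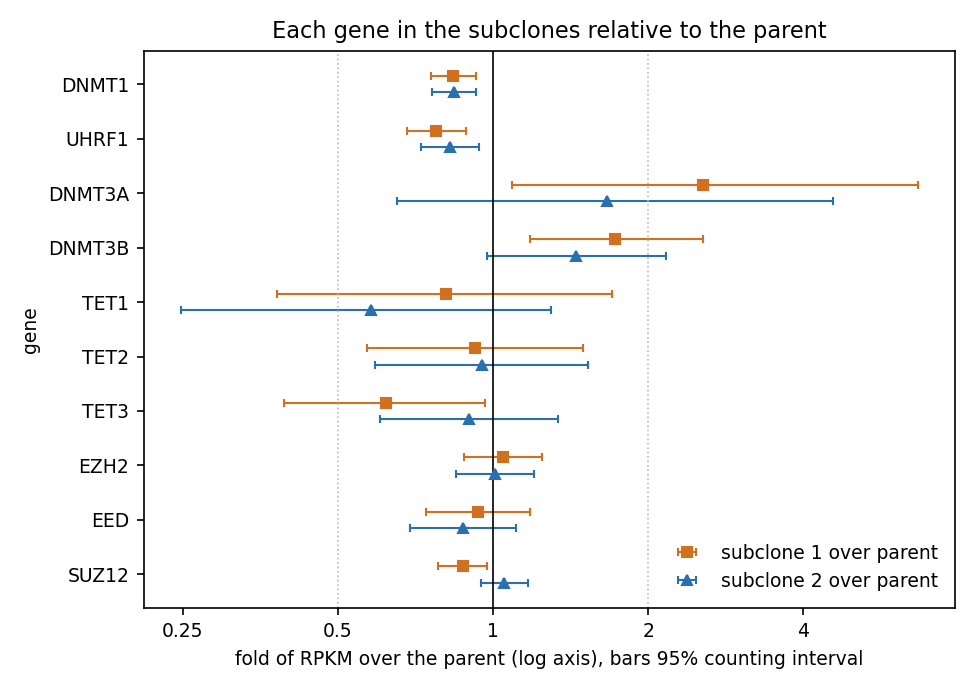
Fold of RPKM over the parent (log axis) for each member in subclone 1 (squares) and subclone 2 (triangles), with 95% counting intervals. Solid and dotted lines mark no difference and 2-fold: DNMT1 and UHRF1 lie below 1 in both subclones (0.776 to 0.841), DNMT3B and DNMT3A lie above 1 and TET3 and SUZ12 below 1 in subclone 1, and the bars of DNMT3A and TET1 are the widest.

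The 3 genes whose pattern over the lines was most like that of DNMT3B, among 8211 other genes with a mean of at least 5 RPKM, were BCAS4, LMBRD1 and COL6A2. Likeness was the distance between the pairs of log2 ratios over the parent, and it rests on 3 libraries only. The distances, from 0.0051 to 0.0106, were far smaller than the counting error of DNMT3B. Its folds had intervals from 1.18 to 2.56 and from 0.974 to 2.17, so which genes are most like it is not resolved. The ratios of DNMT3B were 0.76 in subclone 1 and 0.51 in subclone 2, those of BCAS4 0.77 and 0.51, those of LMBRD1 0.75 and 0.51 and those of COL6A2 0.76 and 0.52.

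The TET genes were scarce throughout, and each comparison of them is limited by depth. TET3 (Entrez 200424, chromosome 2) had 1.12 RPKM for the parent (interval 0.840 to 1.45 from 55 reads), against 0.691 RPKM for subclone 1 (0.482 to 0.961 from 35 reads) and 1.00 RPKM for subclone 2 (0.748 to 1.31 from 52 reads). Subclone 1 was the lowest, at 0.620 times the parent (0.394 to 0.964), although the intervals of the levels overlapped. Subclone 2 was 0.898 times the parent (0.603 to 1.34).
TET2 (Entrez 54790, chromosome 4) had 0.864 RPKM in the parent, 0.797 RPKM in subclone 1 and 0.821 RPKM in subclone 2, from 38, 36 and 38 reads. Its folds over the parent of 0.923 and 0.950 have intervals from 0.568 to 1.495 and from 0.590 to 1.53, too wide to exclude such differences. TET1 (Entrez 80312, chromosome 10), the TET gene of pluripotent cells, was the lowest of the 3 in each library, with 0.418 RPKM in the parent (18 reads), 0.339 RPKM in subclone 1 (15 reads) and 0.242 RPKM in subclone 2 (11 reads). No difference of TET1 was detectable at this depth, with folds of 0.811 (0.381 to 1.71) and 0.581 (0.248 to 1.30). Summed, the 3 genes had 2.40 RPKM in the parent, 1.83 RPKM in subclone 1 and 2.07 RPKM in subclone 2, from 111, 86 and 101 reads.

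Of the PRC2 core, SUZ12 was the member with intervals that excluded 1. EZH2 (Entrez 2146, chromosome 7) was 21.2 RPKM for the parent (interval 18.7 to 23.9 from 259 reads), against 22.1 RPKM for subclone 1 (19.6 to 24.9 from 278 reads) and 21.4 RPKM for subclone 2 (18.9 to 24.1 from 275 reads). The 3 intervals overlapped almost whole. Its folds over the parent of 1.05 (0.879 to 1.24) and 1.01 (0.848 to 1.20) have intervals within 1.24-fold of no difference, and the sign of each turned under another scaling of the libraries.
EED (Entrez 8726, chromosome 11), the subunit that binds methylated lysine 27, had 14.1 RPKM for the parent (interval 11.98 to 16.5 from 153 reads), against 13.2 RPKM for subclone 1 (11.2 to 15.5 from 147 reads) and 12.4 RPKM for subclone 2 (10.4 to 14.6 from 141 reads). The intervals of EED overlapped, with folds over the parent of 0.936 (0.741 to 1.18) and 0.875 (0.691 to 1.11).
SUZ12 (Entrez 23512, chromosome 17), which holds the complex together, was 34.2 RPKM for the parent (interval 31.7 to 36.8 from 687 reads), against 29.8 RPKM for subclone 1 (27.5 to 32.3 from 616 reads) and 36.0 RPKM for subclone 2 (33.5 to 38.6 from 761 reads). Subclone 2 lay above subclone 1 without overlap, and the parent overlapped both. The fold of subclone 2 over subclone 1 was 1.21 (1.08 to 1.34, percentile 83.5 of all genes), and that of subclone 1 over the parent was 0.873 (0.782 to 0.975). A near-identical partial copy, SUZ12P, was listed with 17 parental reads, 13 reads of subclone 1 and 7 of subclone 2, and how shared reads were split is not given in the sources used here.
The summed core was 69.5 RPKM in the parent, 65.2 RPKM in subclone 1 and 69.7 RPKM in subclone 2. Within a library SUZ12 was 1.61 times EZH2 in the parent, 1.35 times in subclone 1 and 1.68 times in subclone 2. Per 1000 RPKM of the proliferation genes EZH2 was 16.7, 20.8 and 18.7, the opposite order to that of UHRF1 between the parent and the subclones.

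Of the other PRC2 genes, 10 of the 11 in the list had a mean of at least 1 RPKM, and none differed 2-fold in a subclone. Intervals lay above 1 for 2 and below 1 for 4 in subclone 1, and for 2 and 2 in subclone 2, and the median log2 ratios were -0.15 and 0.035. Over all genes 20.4% lay above and 19.4% below in subclone 1, and 23.1% and 18.3% in subclone 2. RBBP7, a histone-binding subunit, was the most abundant at 50.3, 44.0 and 49.4 RPKM in the parent, subclone 1 and subclone 2, followed by AEBP2, a DNA-binding subunit, at 18.03, 15.6 and 16.1 RPKM. The genes with intervals that excluded 1 in both subclones were EZH1, PHF1, PHF19 and JARID2, named after their values were seen.
EZH1, the catalytic paralogue of EZH2 found also in resting cells, had 2.30 RPKM in the parent (48 reads), 3.96 RPKM in subclone 1 (85 reads) and 3.41 RPKM in subclone 2 (75 reads). Its folds over the parent were 1.72 (1.20 to 2.51) and 1.48 (1.02 to 2.18). EZH2 exceeded EZH1 by 9.22 times in the parent, 5.59 times in subclone 1 and 6.27 times in subclone 2. Among the accessory subunits that bring PRC2 to chromatin, PHF1 was higher, from 7.42 RPKM in the parent to 11.4 and 11.7 RPKM. PHF19, of the same family, was lower, from 13.6 to 7.84 and 7.70 RPKM, at 0.576 and 0.566 times the parent. JARID2 was lower as well, from 4.26 to 2.79 and 2.83 RPKM. PHF1 and PHF19 thus lay on opposite sides of the parent in both subclones.

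**Figure D3:**
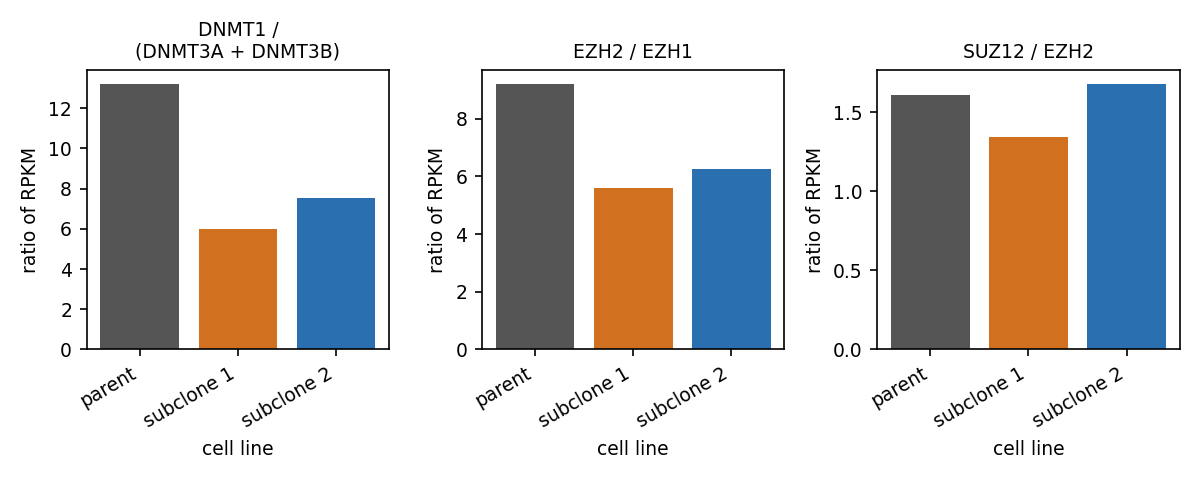
Ratios of RPKM within each library for DNMT1 over the sum of DNMT3A and DNMT3B, EZH2 over EZH1 and SUZ12 over EZH2 (bars, 1 library per cell line, no error drawn). The first is 13.2 in the parent against 5.98 and 7.52 in the subclones and the second 9.22 against 5.59 and 6.27, while the third is lowest in subclone 1 at 1.35.

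Among 14 partners of DNA methylation, 12 had a mean of at least 1 RPKM, and DNMT3L and DPPA3, which act in germ cells and early embryos, were not listed. CDCA7, which recruits the chromatin remodeller HELLS that DNA methylation needs, was the 1 gene at least 2-fold lower in each subclone. It had 15.7 RPKM in the parent (200 reads), 6.80 RPKM in subclone 1 (89 reads) and 4.55 RPKM in subclone 2 (61 reads). The folds over the parent were 0.433 (0.334 to 0.559) and 0.290 (0.214 to 0.388). HELLS itself was 12.2, 11.7 and 13.6 RPKM, with intervals of its folds that included 1. By the interval rule 3 of the 12 were higher and 5 lower in subclone 1, and 4 and 4 in subclone 2, with median log2 ratios of -0.059 and 0.17. The rule called 20.4% of all genes higher and 19.4% lower in subclone 1, and 23.1% and 18.3% in subclone 2.
Among 13 partners of the TET enzymes, 12 had a mean of at least 1 RPKM. CXXC5, a protein with a zinc finger that binds CG, was the 1 gene at least 2-fold higher in subclone 1, and no gene was in subclone 2. Its levels were 11.4 RPKM in the parent (74 reads), 26.8 RPKM in subclone 1 (179 reads) and 18.1 RPKM in subclone 2 (124 reads), with folds of 2.36 (1.79 to 3.13) and 1.59 (1.18 to 2.15). Intervals lay above 1 for 2 and below 1 for 2 genes in subclone 1 and for 1 and 2 in subclone 2, with median log2 ratios of -0.075 and -0.060. Among all genes 20.4% lay above and 19.4% below in subclone 1, and 23.1% and 18.3% in subclone 2.
In the methionine cycle, which supplies the methyl donor of both the DNA and the histone enzymes, 9 of 13 genes had a mean of at least 1 RPKM and none differed 2-fold. In subclone 1, 6 were lower and 1 higher by the interval rule, with a median log2 ratio of -0.29, and in subclone 2, 3 were lower and 2 higher, with a median of -0.069. All genes had shares of 19.4% lower and 20.4% higher in subclone 1, and 18.3% and 23.1% in subclone 2. AHCY, which removes the spent donor, was 129, 102 and 104 RPKM in the parent, subclone 1 and subclone 2. MAT2A, the donor synthase of dividing cells, was 106, 79.6 and 77.9 RPKM. MAT1A, its counterpart of the adult liver, had 2 reads in subclone 2 and 0 in the other libraries, and is named after its values were seen.

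PRC1, the other Polycomb complex, ubiquitinates histone H2A. Of its 24 listed genes 23 had a mean of at least 1 RPKM, 1 of which, CBX7, was at least 2-fold higher in each subclone. CBX7, a subunit that binds methylated lysine 27, had 1.18 RPKM in the parent (21 reads), 2.63 RPKM in subclone 1 (48 reads) and 2.78 RPKM in subclone 2 (52 reads). The folds were 2.23 (1.31 to 3.91) and 2.35 (1.39 to 4.11), and with a pseudocount of 1 neither reached 2-fold on the log2 scale. The first fell short of 2-fold also when the libraries were divided by ACTB. By the interval rule 4 genes were higher and 4 lower in subclone 1 and 7 and 6 in subclone 2, with median log2 ratios of 0.034 and 0.12. The shares over all genes were 20.4% higher and 19.4% lower in subclone 1, and 23.1% and 18.3% in subclone 2. BMI1 was the 1 gene under the minimum, with 6, 4 and 3 reads in the parent, subclone 1 and subclone 2.
A list of 8 genes held enzymes that oppose Polycomb or remove its marks, and partners of such enzymes. All 8 passed the minimum and none differed 2-fold, with 3 higher and 2 lower by the interval rule in subclone 1 and 2 and 3 in subclone 2. The rule called 20.4% of all genes higher and 19.4% lower in subclone 1, and 23.1% and 18.3% in subclone 2. Median log2 ratios of the list were 0.087 and 0.064. BAP1, which takes ubiquitin off histone H2A, was 23.0 RPKM in the parent, 15.6 RPKM in subclone 1 and 18.3 RPKM in subclone 2. Its partner ASXL1 was 12.7, 11.7 and 12.03 RPKM.

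**Figure D4:**
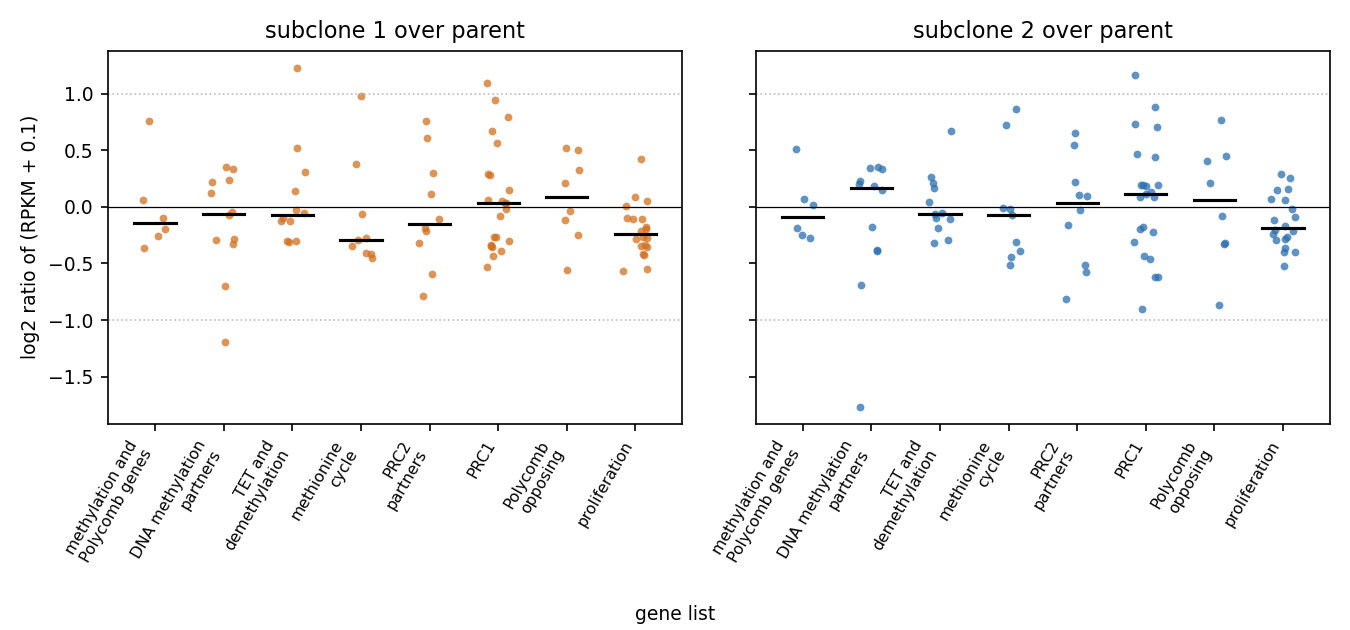
Log2 ratio of (RPKM + 0.1) over the parent for subclone 1 (left) and subclone 2 (right), 1 point per gene with a mean of at least 1 RPKM and a bar at the median of each list. The first column holds 6 of the 10 members, dotted lines mark 2-fold, CDCA7 is the lowest point at -1.19 and -1.76, and the proliferation genes have medians of -0.24 and -0.19.

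Genes that these systems are known to keep silent were read from 2 further lists. Of 17 germline genes whose promoters are methylated in somatic cells, 8 were listed and 4 had a mean of at least 1 RPKM. The meiotic and testis genes DAZL, SYCE1, MAEL, TDRD1, BRDT, TEX101, DPEP3, MAGEA4 and CTAG1B were not listed in any library. SSX1, by contrast, was 174 RPKM in the parent, 162 RPKM in subclone 1 and 159 RPKM in subclone 2, and MAGEA3 was 14.5, 13.5 and 13.5 RPKM. Both have near-identical family members, so that their reads may be shared. GTSF1 and PRAME were at 0 reads in the parent and the only genes of the list at least 2-fold higher in either subclone among those with a mean of at least 1 RPKM. GTSF1 had 140 and 75 reads in subclone 1 and subclone 2, and PRAME had 83 and 37. By the interval rule 2 of these 4 genes were higher and 0 lower in subclone 1, and 2 and 1 in subclone 2. The shares over all genes were 20.4% and 19.4% in subclone 1, and 23.1% and 18.3% in subclone 2. The median ratio of the 4 genes would depend on the pseudocount, with 2 genes at 0 reads in the parent, and is not given.
Of 14 developmental and growth-control genes under Polycomb in many cells, 7 were listed and 5 had a mean of at least 1 RPKM, with median log2 ratios of -0.18 and -0.038. HOXA9, HOXD10, HOXD13, WT1, PAX2, OLIG2 and NKX2-1 were not listed in any library. CDKN1C, an inhibitor of cyclin-dependent kinases, was the 1 gene at least 2-fold higher in each subclone, with 10.3 RPKM in the parent (90 reads), 29.03 RPKM in subclone 1 (260 reads) and 22.7 RPKM in subclone 2 (208 reads). Its folds were 2.81 (2.21 to 3.62) and 2.20 (1.71 to 2.84). By the interval rule 1 gene was higher and 1 lower in subclone 1, and 2 and 1 in subclone 2. Among all genes 20.4% were higher and 19.4% lower in subclone 1, and 23.1% and 18.3% in subclone 2. The lower gene of the list in both subclones was DAB2IP, which restrains growth signalling, with folds of 0.707 (0.525 to 0.947) and 0.706 (0.526 to 0.945). GATA6, a developmental transcription factor, had folds of 1.22 (0.956 to 1.56) and 1.37 (1.08 to 1.74). CDKN2A, another Polycomb target, was 24.2, 21.3 and 23.6 RPKM, with intervals of its folds that included 1. Methylation of DNA or histones was not measured here.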

How the data were processed

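Messenger RNA of 3 cultured lines was sequenced from TruSeq libraries, 1 per line. The deposited RPKM values were made by the authors on hg19, per the submitters' processing notes, and list only genes above 0, so a missing gene was set to 0. The aligner, counting tool, annotation and use of strand are not given in the sources used here. Genes stand in the files in falling order of reads, so the last 300 rows of each library hold 1 read, which gave the library totals. The smallest length with whole reads in every library (tolerance 1e-05 reads), multiplied to suit the reads of neighbouring rows, gave the reads of each gene. The recovered reads followed the falling order in 99.96% or more of steps, and summed to 101% of each total. Why the sum exceeds the total was not tested. The lengths of all 10 members lay within 7.87% of a GENCODE transcript. The steps were checked on simulated libraries that were likewise sorted by reads. DNMT1 shares 83 exonic bases with S1PR2 in GENCODE.

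Ratios were log2 of (RPKM + 0.1), which understates changes of low genes. With 1 library per line no p-value was computed. Members, lists and tests were chosen with earlier results of these data known. The genes named were the 10 members and, per list, up to 4 genes of a mean of at least 1 RPKM at least 2-fold higher or lower in a subclone, or else the 2 most abundant. Others are said to be named after their values were seen or serve to describe a list, among them KRT8, KRT18, CDH1, EPCAM, ALB, PTPRC, COL1A2, HELLS, CD68, LUM, DCN, COL3A1, PECAM1, VWF, SSX1, MAGEA3, DAB2IP, GATA6 and CDKN2A. A gene of the Polycomb target list is not reported here. The older symbols C17orf96, MLL3 and MLL2 were used for EPOP, KMT2C and KMT2D. Alternatives were a pseudocount of 0.01 or 1, rescaling to an equal sum, centring on the median, use of the upper quartile, ACTB or GAPDH, no minimum or a mean of at least 5 RPKM, and 1.5-fold. Software versions were Python 3.11.15, matplotlib 3.10.9, numpy 2.4.6, pandas 2.3.3 and scipy 1.17.1.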

Additional observations from a re-analysis of the deposited data

Results flagged for a closer look

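SUZ12 lay on opposite sides of the parent in the 2 subclones, with a log2 ratio of -0.20 in subclone 1 and 0.073 in subclone 2. The difference was not tested, since 1 library stands for each line, and the interval of the second ratio includes 0. No other member had ratios of opposite sign.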

How the results depend on the processing

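For the 30 log2 ratios of members, the 210 values obtained with 7 alternatives stayed inside the counting intervals. For members with few reads this says little, since their intervals are wide. The ratio of DNMT3A in subclone 1 went from 1.17 to 0.54 with a pseudocount of 1 and still lay inside. Of the 30 ratios, 6 turned sign with at least 1 scaling, each with an interval that included 1. These were EZH2 in all 3 comparisons, and DNMT1, EED and TET2 between the subclones. EZH2 in subclone 1 over the parent went from 0.064 to -0.068 with ACTB, which moved the median of all genes there from 0.0043 to -0.13. Division by ACTB or GAPDH moved the median of subclone 2 over subclone 1 to 0.16 or 0.15. With ACTB the share of higher among the genes that differed 2-fold in subclone 1 went from 72.9% to 57.8%, and for subclone 2 over subclone 1 from 50.5% to 64.0%, or 62.6% with GAPDH. Over all genes, the counts 2-fold higher and lower were 557 and 207 in subclone 1, 606 and 246 in subclone 2, and 161 and 158 between the subclones. A pseudocount of 1 gave 347 higher with 117 lower, 380 with 150, and 80 with 77, in the same order. No minimum gave 1523 with 884, 1553 with 941, and 842 with 902. A minimum of 5 RPKM gave 233 with 71, 253 with 93, and 43 with 46. A threshold of 1.5-fold gave 1317 with 848, 1444 with 830, and 540 with 467. With ACTB 328 genes were lower in subclone 1. For subclone 1 over the parent the count of members 2-fold higher was 0, and became 1 with no minimum of RPKM (DNMT3A) and 1 at 1.5-fold (DNMT3B). By intervals that exclude 1, an alternative chosen after seeing the data, the members with a mean of at least 1 RPKM that were higher and lower were 1 and 3 in subclone 1 (20.4% and 19.4% of all genes), 0 and 2 in subclone 2 (23.1% and 18.3%), and 1 and 0 between the subclones (11.9% and 8.74%). Under that minimum, DNMT3A was higher and TET3 lower in subclone 1, and the shares given do not cover genes under it. No paired analysis was possible because there is 1 library for each line, which also allows none to be left out. Depth limits DNMT3A most, whose 8 parental reads leave a fold between 1.09 and 6.67 in subclone 1.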

Other observations

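Outside the genes named by rule, and chosen after their values were seen, ASXL2, a partner of BAP1, was 8.51 RPKM in the parent, 8.32 RPKM in subclone 1 and 4.63 RPKM in subclone 2, from 274, 275 and 157 reads. Subclone 2 stood apart from both other lines, at 0.544 times the parent (0.444 to 0.665) and 0.557 times subclone 1 (0.455 to 0.680). ZBTB38, a reader of methylated CG, was lower in both subclones, with 20.7 RPKM in the parent, 12.7 RPKM in subclone 1 and 12.8 RPKM in the other, at 0.614 (0.547 to 0.688) and 0.618 (0.552 to 0.692) times the parent.

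The germline gene DDX4, an RNA helicase of germ cells, had 7 reads in subclone 2 and 0 in the other libraries. STK31, a kinase of the testis, had 8 parental reads, 23 reads of subclone 1 and 10 of subclone 2, and its fold of subclone 1 over the parent was 2.80 with an interval from 1.21 to 7.24. BCORL1, of a PRC1 variant complex, was 3.03 RPKM in the parent, 5.94 RPKM in subclone 1 and 5.67 RPKM in subclone 2, just under 2-fold at 1.96 (1.53 to 2.52) and 1.87 (1.46 to 2.41).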
